A study of Mus musculus with 2 samples.

Results

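Glycolysis breaks glucose down to pyruvate, and the pentose phosphate pathway branches off at its first intermediate. The genes of both pathways were compared between bone marrow derived macrophages of C57BL/6 mice given IL-36 gamma (a member of the interleukin-1 cytokine family), and untreated macrophages of the same kind. The set holds 30 genes chosen by their function in glucose uptake, glycolysis, lactate export and the pentose branch. All 30 reached a mean count of at least 10 over the libraries, as did 14379 of the 54446 genes in the files. There was 1 library of total RNA for the IL-36 gamma group and 1 for the control group. The sources used here do not give the dose, the duration of exposure or the number of mice behind each library. Since each group had 1 library, differences could not be checked against replicates and no test was made.

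In glycolysis, glucose enters through transporters, is phosphorylated and split in upper glycolysis, which spends ATP, and is oxidised in lower glycolysis, which returns ATP. Pyruvate is then reduced to lactate and exported, or enters mitochondria. The oxidative pentose branch makes NADPH, which phagocytes use for the oxidative burst and for antioxidant defence, and the non-oxidative branch links pentoses back to glycolytic intermediates. Macrophages activated through Toll-like receptors are known for raised glucose uptake and lactate release, and hypoxia-inducible factor is a known activator of many of these genes.

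The IL-36 gamma library held 17267900 counts in genes and the control library 17426367. Levels are in CPM, which divides each count by the size of its library, after scaling by TMM, a method that sets the bulk of genes equal between libraries. Ratios are IL-36 gamma over control, each followed in parentheses by its exact 95% Clopper-Pearson interval. The intervals cover counting error only, because reads copied in amplification are not separate molecules and 1 library per group was analysed here. A member is called higher or lower below only where its whole interval lies above or below 1. In such bulk RNA, fewer cells of a type and less RNA per cell cannot be told apart. The macrophage genes Lyz2 (380329 counts with IL-36 gamma and 404546 in the control), Adgre1 (53682 counts with IL-36 gamma and 49439 in the control) and Csf1r (20786 counts with IL-36 gamma and 26965 in the control) were abundant in both libraries.

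Of the 17 genes of upper and lower glycolysis, 12 had slightly more transcript in macrophages given IL-36 gamma, and with the trend of ratios on expression removed 7 were higher and 2 lower. Of all 30 members, 18 were higher and 1, Pdk1, was lower. Scaled by total counts in place of TMM, 16 were higher and 3 lower, with Hk2 and Pfkl no longer higher and Hk1 (0.928) and G6pdx (0.941) then lower. Under each of 6 other scalings and trends 12 members were higher, namely Hk3, Pfkfb3, Aldoa, Tpi1, Gapdh, Pgam1, Pkm, Ldha, Slc16a3, Pgm1, Tkt and Taldo1. Over all 14379 measured genes 20.2% were higher and 16.5% lower by the same rule. The interval rule follows depth: of the 1942 measured genes at 100 CPM or more, 52.9% were higher and 22.9% lower, and 16 of the 19 members at that level were higher and 0 lower. Of the 11 members under 100 CPM, 2 were higher and 1 was lower. All differences were small. No member had its whole interval below 0.8 or above the inverse of 0.8, bounds passed by 2.53% and 1.52% of measured genes and by 2.52% and 3.6% of those at 100 CPM or more. None had its whole interval above 2 or below 0.5, which held for 0.0765% and 0.0904% of measured genes and for 0.206% and 0.0515% of those at 100 CPM or more. Member ratios ran from 0.901 for Pdk1 to 1.24 for Pkm, and their median log2 ratio was 0.12, against 0.01 over all measured genes and 0.09 over those at 100 CPM or more. Together the members took 1.65% of gene counts in the IL-36 gamma library and 1.48% in the control, a ratio of scaled sums of 1.16 (1.15 to 1.16).

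**Figure D1:**
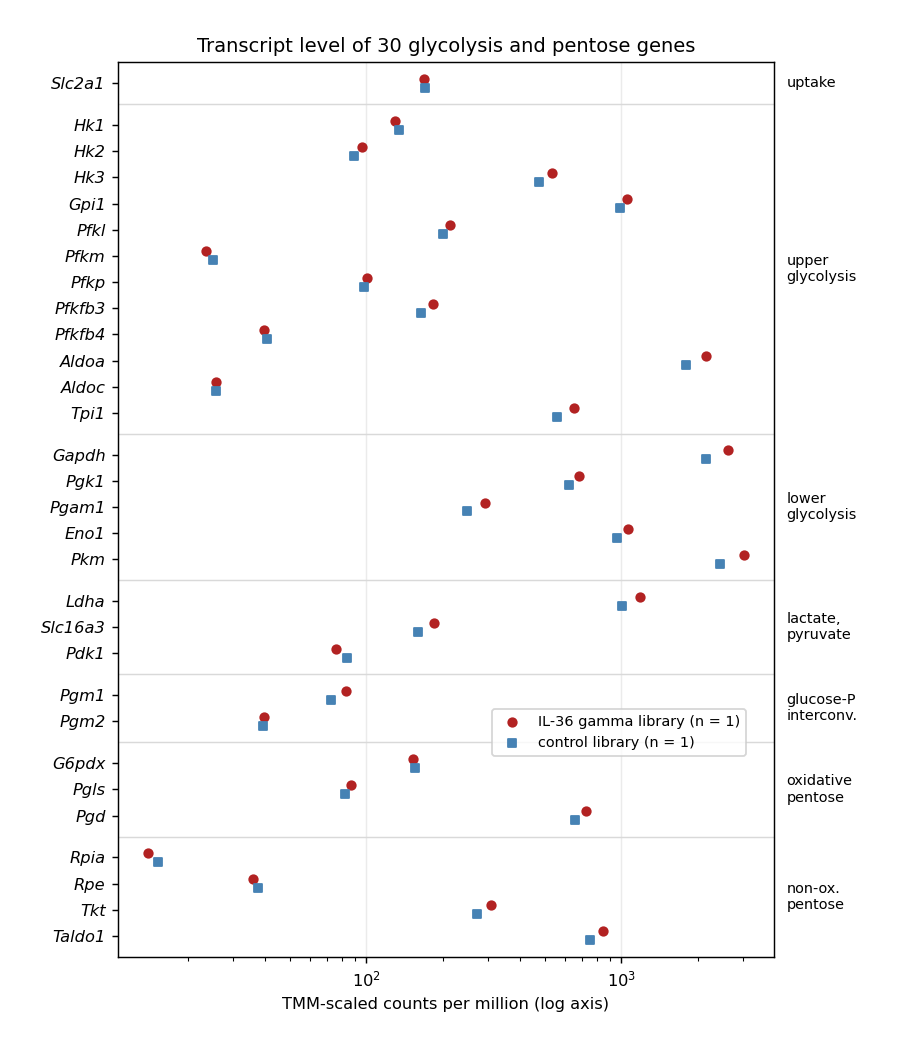
Transcript level of each of the 30 genes on a log axis of TMM-scaled CPM, grouped by step; red circles are the IL-36 gamma library and blue squares the control library (n = 1 each). CPM also follows gene length, so the distance between symbols within a row is what compares the libraries. The red circle lies to the right of the blue square for all 5 genes of lower glycolysis.

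The promoters of the set are shown for those members with at least 2 separate matches to ACGTG, the core of the site bound by hypoxia-inducible factor, because that factor is the best known shared regulator of glycolytic genes. Sequences are from RefSeq on GRCm38.p6 and give the 250 bases before the annotated start on the gene's strand, 5′ to 3′, with matches on either strand in capitals. An overlap of both strands in CACGTG counts as 1 site.
Pgm1 chr4:99929201-99929450 (+): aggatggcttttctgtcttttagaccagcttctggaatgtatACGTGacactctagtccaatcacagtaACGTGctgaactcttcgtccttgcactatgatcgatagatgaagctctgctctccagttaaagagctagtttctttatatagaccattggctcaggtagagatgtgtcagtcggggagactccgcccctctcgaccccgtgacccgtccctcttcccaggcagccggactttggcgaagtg
Hk2 chr6:82774455-82774704 (-): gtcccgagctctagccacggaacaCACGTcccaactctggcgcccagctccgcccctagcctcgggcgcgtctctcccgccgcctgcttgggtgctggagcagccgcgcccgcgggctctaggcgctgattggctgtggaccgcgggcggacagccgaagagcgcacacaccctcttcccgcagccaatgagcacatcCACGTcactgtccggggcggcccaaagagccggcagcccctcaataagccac
Ldha chr7:46845554-46845803 (+): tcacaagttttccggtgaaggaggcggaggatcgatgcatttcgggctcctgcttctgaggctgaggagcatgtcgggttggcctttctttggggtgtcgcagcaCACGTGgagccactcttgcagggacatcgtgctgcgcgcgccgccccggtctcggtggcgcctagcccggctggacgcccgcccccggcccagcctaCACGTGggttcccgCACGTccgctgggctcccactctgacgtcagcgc
Slc16a3 chr11:120948817-120949066 (+): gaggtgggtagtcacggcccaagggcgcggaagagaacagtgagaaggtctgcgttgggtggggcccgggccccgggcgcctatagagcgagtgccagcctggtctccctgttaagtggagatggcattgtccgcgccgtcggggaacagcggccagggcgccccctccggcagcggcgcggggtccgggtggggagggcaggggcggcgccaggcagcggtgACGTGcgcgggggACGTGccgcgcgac
Pgk1 chrX:106186850-106187099 (+): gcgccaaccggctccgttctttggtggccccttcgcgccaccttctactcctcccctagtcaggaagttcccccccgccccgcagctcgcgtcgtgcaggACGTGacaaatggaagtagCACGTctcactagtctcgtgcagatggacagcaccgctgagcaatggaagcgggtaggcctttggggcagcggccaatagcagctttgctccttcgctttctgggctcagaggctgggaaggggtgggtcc

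All 30 members had a promoter window in that table, 44 windows in all, each of 250 bases before and 50 after a start. ACGTG on either strand was in 20 of the 44 windows (45.5%), from 17 genes, against 19.6% of all 32851 windows. The longer E-box CACGTG, which contains it, was in 3 of the 44 windows (6.82%), against 7.15% of all windows. Members with several windows count more than once in these shares, and a site of Aldoa in overlapping windows counts in each. A share by gene was not computed over all promoters. Of the 18 higher members, 11 had ACGTG in at least 1 window, as did 6 of the 11 members whose interval includes 1, and Pdk1 had none. The 5 promoters printed above belong to genes that were higher with IL-36 gamma, as were 18 of all 30 members. The call of Hk2 was lost under 4, and that of Pgk1 under 2, of 6 other scalings and trends. Whether the motif goes with the ratio was not tested. A match is a run of letters and not a measured binding site.

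For glucose uptake the set holds a single transporter gene, whose transcript did not differ beyond counting error. Slc2a1 (ENSMUSG00000028645, chr4:119108711-119137983, mm10), which encodes the glucose transporter GLUT1, had 2844 counts (168 CPM) with IL-36 gamma and 3008 counts (169 CPM) in the control. The ratio was 0.992 (0.942 to 1.04), so the levels lay side by side. Of 10 other genes listed for sugar transport, glucose phosphorylation and glucosamine phosphate deamination, 6 were measured, with 2 higher and 1 lower. Their median log2 ratio was 0.15. The transporter gene Slc2a3 (171 counts with IL-36 gamma and 165 in the control, ratio 1.09, 0.873 to 1.35) and Slc2a6 (257 counts with IL-36 gamma and 231 in the control, ratio 1.17, 0.974 to 1.40), a transporter of myeloid cells, had intervals that include 1. The endosomal transporter gene Slc2a8 (1.18, 1.03 to 1.36) and the glucosamine phosphate deaminase gene Gnpda1 (1.14, 1.08 to 1.21) were higher, and the urate and hexose transporter gene Slc2a9 was lower (0.838, 0.748 to 0.938).

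In upper glycolysis 7 of 12 members were higher and none was lower, and the median log2 ratio was 0.10. By the same rule 20.2% of all measured genes were higher. Of those at 100 CPM or more 52.9% were, with a median log2 ratio of 0.09. With the trend on expression removed, 4 of the 12 members were higher and 2, Gpi1 and Hk1, were lower. Hexokinase, which traps glucose in the cell as its phosphate, is encoded by 3 of the members. Hk3 (ENSMUSG00000025877, chr13:55005985-55021385), the form typical of myeloid cells, had 9021 counts (533 CPM) with IL-36 gamma and 8450 counts (475 CPM) in the control, a ratio of 1.12 (1.09 to 1.15). Hk2 (ENSMUSG00000000628, chr6:82725025-82774454), the inducible form that binds mitochondria, had 1632 counts (96.4 CPM) with IL-36 gamma and 1589 counts (89.4 CPM) in the control, a ratio of 1.08 whose interval (1.01 to 1.16) only just cleared 1 and included 1 under 4 of the 6 other scalings and trends. Hk1, the widely expressed mitochondrial form, had 2200 counts with IL-36 gamma and 2392 in the control and a ratio of 0.965 (0.911 to 1.02), and was lower under 3 of those 6.

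The next enzyme genes were also a little higher. Gpi1, which turns glucose phosphate into fructose phosphate, had 17881 counts with IL-36 gamma and 17517 in the control, a ratio of 1.07 (1.05 to 1.09). That direction turned to 0.976 when the trend of ratios on expression was removed. Among the subunits of phosphofructokinase, the committed step, the liver type Pfkl was higher at 1.07 (3619 counts with IL-36 gamma and 3551 in the control, 1.02 to 1.12), a call lost under 3 of the 6. The muscle type Pfkm (398 counts with IL-36 gamma and 445 in the control, 0.939, 0.818 to 1.08) and the platelet type Pfkp (1701 counts with IL-36 gamma and 1744 in the control, 1.02, 0.957 to 1.10) were on neither side. Pfkfb3 (ENSMUSG00000026773, chr2:11471433-11554077), whose product makes the fructose bisphosphate that activates phosphofructokinase, had 3097 counts (183 CPM) with IL-36 gamma and 2903 counts (163 CPM) in the control, a ratio of 1.12 (1.06 to 1.18). The related Pfkfb4 had 672 counts with IL-36 gamma and 727 in the control, a ratio of 0.970 (0.872 to 1.08). The activator gene Pfkfb3 was higher and its relative was not, although the difference between their ratios was not tested.

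Aldolase and triose phosphate isomerase, which make the triose phosphates, closed upper glycolysis with its highest ratios. Aldoa (ENSMUSG00000030695, chr7:126795234-126800751), the most abundant upper gene, had 36426 counts (2151 CPM) with IL-36 gamma and 31918 counts (1796 CPM) in the control, a ratio of 1.20 (1.18 to 1.22). A second Ensembl gene with the symbol Aldoa, adjoining the first, had 19 counts with IL-36 gamma and 17 in the control and was not used. Aldoc, the form known from brain, had 436 counts with IL-36 gamma and 459 in the control and a ratio of 0.997 (0.873 to 1.14). Tpi1 had 11063 counts (653 CPM) with IL-36 gamma and 9907 counts (557 CPM) in the control, a ratio of 1.17 (1.14 to 1.20).

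All 5 genes of lower glycolysis were higher, with a median log2 ratio of 0.23. At their levels many genes were: 47.7% of the measured genes from 100 to 300 CPM, where Pgam1 lay, 68.2% from 300 to 1000 CPM and 69.05% from 1000 CPM. With the trend on expression removed, 3 of the 5 were higher, and the intervals of Pgk1 (0.981 to 1.03) and Eno1 (0.984 to 1.03) included 1. Gapdh (ENSMUSG00000057666, chr6:125161715-125166467), which oxidises the triose phosphate and makes NADH, had 44357 counts (2620 CPM) with IL-36 gamma and 38065 counts (2142 CPM) in the control, a ratio of 1.22 (1.21 to 1.24). Pkm (ENSMUSG00000032294, chr9:59656368-59679375), the pyruvate kinase gene, had 51112 counts (3019 CPM) with IL-36 gamma and 43428 counts (2444 CPM) in the control, a ratio of 1.24 (1.220 to 1.251), the highest of the members. Its M1 and M2 forms differ by an exon and cannot be told apart in counts per gene. Pgam1, the phosphoglycerate mutase gene, had 4938 counts with IL-36 gamma and 4415 in the control and a ratio of 1.17 (1.13 to 1.22). Pgk1, an ATP-making kinase, had 11594 counts with IL-36 gamma and 11118 in the control and a ratio of 1.09 (1.07 to 1.12), which became 1.02 (0.994 to 1.05) with the trend on exon length removed. The enolase gene Eno1 had 17942 counts with IL-36 gamma and 17081 in the control and a ratio of 1.10 (1.08 to 1.13). Gapdh is widely used to normalise transcript measurements, and here it was itself in the higher part of the set. The scaled sum over the 5 genes was 7674 CPM with IL-36 gamma and 6421 CPM in the control, a ratio of 1.20 (1.19 to 1.20), and that over the 12 upper genes was 5206 CPM with IL-36 gamma and 4592 in the control, a ratio of 1.13 (1.12 to 1.14).

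Several of these genes have near-identical copies, mostly processed pseudogenes, and reads with more than 1 alignment were set apart by the counter (6.92% of the IL-36 gamma total and 6.65% of the control total). Of the 50-base stretches in the longest coding transcript, 82.5% for Gapdh, 72.2% for Eno1, 68.0% for Pgk1, 41.5% for Pgam1, 34.4% for Pkm and 16.6% for Ldha also occur in another annotated gene. The Gapdh stretches occur in 222 other genes, 212 of them pseudogenes, which together held 960 counts with IL-36 gamma and 1059 in the control. The level of these members is therefore uncertain. Without the 13 members that share over 5% of their stretches, 8 of 17 were higher. By the same rule 20.2% of all measured genes were higher, and 52.9% of those at 100 CPM or more. No gene of lower glycolysis was among the 17, so this check cannot speak to that step. In the plot of ratios by step the genes with such copies have some of the narrowest intervals, since those reflect counting error only.

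**Figure D2:**
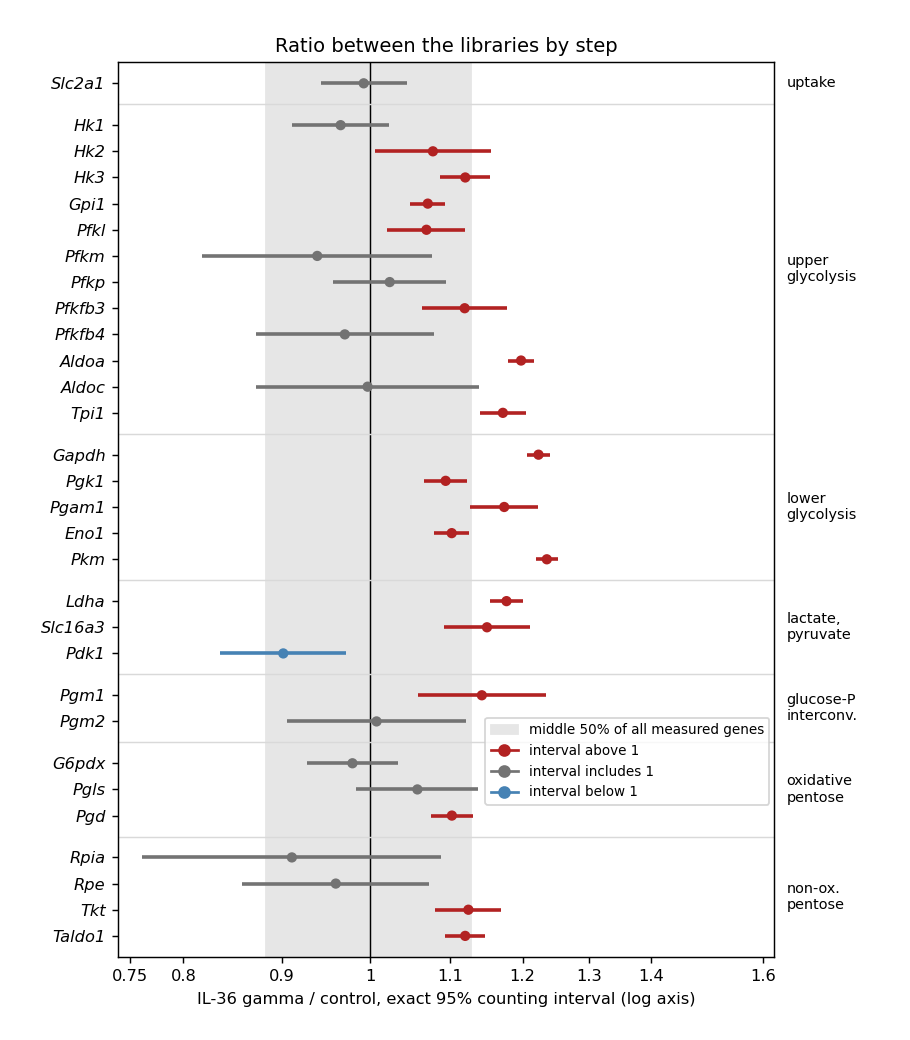
Ratio of IL-36 gamma over control for each gene on a log axis, with its exact 95% counting interval, grouped by step; red intervals lie above 1, grey ones include 1 and the blue one lies below 1, and the grey band holds the middle 50% of all measured genes. The 5 lower glycolysis genes lie between 1.09 and 1.24, while Slc2a1, G6pdx and Rpia include 1.

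At the end of glycolysis, genes for making and exporting lactate were higher and a brake on mitochondrial pyruvate use was lower. By the same rule 69.05% of measured genes from 1000 CPM, where Ldha lay, were higher. From 100 to 300 CPM, where Slc16a3 lay, 47.7% were higher, and from 30 to 100 CPM, where Pdk1 lay, 21.7% were lower. With the trend on expression removed, Ldha was at 1.07 (1.05 to 1.09), Slc16a3 at 1.10 (1.05 to 1.16) and Pdk1 at 0.884 (0.820 to 0.953). Ldha (ENSMUSG00000063229, chr7:46841475-46855627), the lactate dehydrogenase subunit that favours lactate, had 20053 counts (1184 CPM) with IL-36 gamma and 17880 counts (1006 CPM) in the control, a ratio of 1.18 (1.15 to 1.20). Slc16a3 (ENSMUSG00000025161, chr11:120948480-120960868), a lactate exporter, had 3116 counts (184 CPM) with IL-36 gamma and 2844 counts (160 CPM) in the control, a ratio of 1.15 (1.09 to 1.21). Pdk1 (ENSMUSG00000006494, chr2:71873224-71903858), a kinase that switches off pyruvate dehydrogenase, had 1283 counts (75.8 CPM) with IL-36 gamma and 1494 counts (84.1 CPM) in the control, a ratio of 0.901 (0.836 to 0.972). That call ended with the trend on exon length removed (0.951, 0.882 to 1.03). The related kinase genes Pdk2 (0.837, 0.689 to 1.02), Pdk3 (1.26, 0.958 to 1.65) and Pdk4 (0.700, 0.281 to 1.67) had intervals that include 1.

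Of 17 other genes of lactate and pyruvate handling, all measured, 4 were higher and 1 lower, with a median log2 ratio of 0.01. Bsg, the chaperone that brings lactate carriers to the membrane, had 5693 counts with IL-36 gamma and 5020 in the control and a ratio of 1.19 (1.15 to 1.24). Mpc2, a subunit of the mitochondrial pyruvate carrier, had 751 counts with IL-36 gamma and 626 in the control and a ratio of 1.26 (1.13 to 1.40). The carrier gene Slc16a7 was lower (192 counts with IL-36 gamma and 263 in the control, 0.766, 0.633 to 0.926) and the interval of Slc16a1 included 1 (169 counts with IL-36 gamma and 148 in the control, 1.20, 0.956 to 1.50).

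Of the genes for phosphoglucomutases, which move the phosphate on sugar phosphates, 1 was higher. From 30 to 100 CPM, where both genes lay, 27.1% of measured genes were higher. Pgm1, whose product links glycolysis with glycogen, had 1408 counts (83.2 CPM) with IL-36 gamma and 1293 counts (72.8 CPM) in the control, a ratio of 1.14 (1.06 to 1.23). Pgm2, whose product acts on pentose phosphates, had 674 counts with IL-36 gamma and 702 in the control and a ratio of 1.01 (0.905 to 1.12). Symbols here follow GENCODE M21, in which Pgm1 lies on chromosome 4 and Pgm2 on chromosome 5. Of 14 glycogen genes 13 were measured, with 1 higher, 3 lower and a median log2 ratio of 0.03. The glycogen primer gene Gyg was higher (1.14, 1.04 to 1.24), and the phosphorylase kinase gene Phka2 was lower (0.758, 0.706 to 0.813).

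Of the 7 pentose genes, the 3 with the most counts were higher and the others had intervals that include 1. Among measured genes at 100 CPM or more, a level that these 3 and G6pdx reached, 52.9% were higher. In the oxidative branch, G6pdx (ENSMUSG00000031400, chrX:74409483-74429194), the entry enzyme and first source of NADPH, had 2583 counts (153 CPM) with IL-36 gamma and 2769 counts (156 CPM) in the control, a ratio of 0.979 (0.928 to 1.03). Pgls, the lactonase that follows, had 1478 counts with IL-36 gamma and 1466 in the control and a ratio of 1.06 (0.984 to 1.14). Pgd (ENSMUSG00000028961, chr4:149149991-149166771), the other NADPH-making enzyme, had 12330 counts (728 CPM) with IL-36 gamma and 11736 counts (660 CPM) in the control, a ratio of 1.10 (1.08 to 1.13). Pgd was the only 1 of these 3 that was higher, and its interval included 1 with the trend on expression removed (0.988 to 1.04). G6pdx was lower under 3 of the 6 other scalings and trends, at 0.941 with total counts, 0.942 with the expression trend removed and 0.935 with the length trend removed.

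In the non-oxidative branch the abundant pair of transferases was higher and the rarer pair of isomerising enzymes was not. Calls over all measured genes also followed depth. From 300 to 1000 CPM, where Taldo1 lay, 68.2% were higher, and from 100 to 300 CPM, where Tkt lay, 47.7% were. From 30 to 100 CPM, where Rpe lay, 27.1% were higher, and from 10 to 30 CPM, where Rpia lay, 14.7% were. Taldo1 (ENSMUSG00000025503, chr7:141392199-141402968), the transaldolase gene, had 14349 counts (847 CPM) with IL-36 gamma and 13442 counts (756 CPM) in the control, a ratio of 1.12 (1.09 to 1.15). Tkt, the transketolase gene, had 5196 counts with IL-36 gamma and 4849 in the control and a ratio of 1.12 (1.08 to 1.17). Rpia, which makes the ribose phosphate used for nucleotides, had 236 counts with IL-36 gamma and 272 in the control and a ratio of 0.911 (0.762 to 1.09). Rpe, the epimerase gene, had 609 counts with IL-36 gamma and 666 in the control and a ratio of 0.960 (0.858 to 1.07).

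Of 13 other pentose genes 10 were measured, with 2 higher and 2 lower and a median log2 ratio of 0.02. H6pd, the enzyme that runs the oxidative branch inside the endoplasmic reticulum, was lower with 1929 counts with IL-36 gamma and 2550 in the control, a ratio of 0.794 (0.748 to 0.843). The ribokinase gene Rbks (154 counts with IL-36 gamma and 110 in the control, 1.47, 1.14 to 1.89) and the deoxyribose phosphate aldolase gene Dera (715 counts with IL-36 gamma and 615 in the control, 1.22, 1.09 to 1.36) were higher. Shpk, a sedoheptulose kinase known to restrain macrophage activation, had 97 counts with IL-36 gamma and 95 in the control and a ratio of 1.07 (0.799 to 1.44). Among 15 measured genes of 18 in the list of other glycolytic and gluconeogenic enzymes, 2 were higher and 1 lower, with a median log2 ratio of 0.07. The mitochondrial carboxykinase gene Pck2 was higher (851 counts with IL-36 gamma and 765 in the control, 1.17, 1.06 to 1.29) and Pfkfb2, a relative of Pfkfb3, was lower (114 counts with IL-36 gamma and 176 in the control, 0.680, 0.532 to 0.865). Tigar, a phosphatase that lowers fructose bisphosphate, had 331 counts with IL-36 gamma and 335 in the control (1.04, 0.888 to 1.21).

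By reaction, the counts of isoenzymes were summed under TMM scaling. All 10 reactions from hexokinase to pyruvate kinase had an interval above 1, as did lactate dehydrogenase and 3 of the 7 pentose reactions. Calls follow depth, and the 4 other pentose reactions had the fewest counts of all; of measured genes at 100 CPM or more, 52.9% were higher. With the trend on expression removed, Hk2, the phosphofructokinase gene Pfkl, Pgk1, Eno1 and the pentose gene Pgd were no longer higher. Gpi1 was then lower (0.956 to 0.997). The summed reactions were not recomputed under that trend or under other scalings. Phosphofructokinase, whose interval only just cleared 1, had 5718 counts with IL-36 gamma and 5740 in the control before scaling. The summed ratio was 1.09 (1.06 to 1.11) for hexokinase, 1.05 (1.01 to 1.08) for phosphofructokinase and 1.20 (1.18 to 1.21) for aldolase. The sums over branches were 1.08 (1.05 to 1.10) for the oxidative and 1.11 (1.09 to 1.14) for the non-oxidative pentose genes. Each sum mainly follows its most abundant gene, which was Pgd with 75.2% of oxidative counts with IL-36 gamma and 73.5% in the control, and Taldo1 with 70.4% of non-oxidative counts with IL-36 gamma and 69.9% in the control. The sum for the 3 lactate and pyruvate genes was 1.16 (1.13 to 1.18), of which Ldha held 82.0% with IL-36 gamma and 80.5% in the control.

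Levels of the reactions can be compared per length. On the scale of CPM per kilobase of exon, aldolase stood at 747 with IL-36 gamma and 625 in the control. Gapdh stood at 634 with IL-36 gamma and 518 in the control, and Pkm at 604 with IL-36 gamma and 489 in the control. Hexokinase, all 3 genes together, stood at 176 with IL-36 gamma and 160 in the control on the same scale, and phosphofructokinase at 46.6 with IL-36 gamma and 44.8 in the control, the lowest of the 10 glycolytic reactions in both libraries. In the pentose pathway Taldo1 stood at 390 CPM per kilobase with IL-36 gamma and 348 in the control, and Pgd at 113 with IL-36 gamma and 102 in the control. G6pdx stood at 49.5 with IL-36 gamma and 50.6 in the control, and Rpia at 2.60 with IL-36 gamma and 2.86 in the control. The order of these reactions was the same in both libraries, and the spread between reactions was far wider than the difference between libraries for any of them.

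The same isoenzyme led in both libraries for each enzyme with several genes. As a share of counts per kilobase of exon, Hk3 made up 82.2% (81.6 to 82.7) of hexokinase with IL-36 gamma and 80.8% (80.2 to 81.3) in the control. Pfkl made up 68.8% (67.6 to 69.9) of phosphofructokinase with IL-36 gamma and 66.9% (65.7 to 68.1) in the control. Pfkfb3 made up 74.8% (73.2 to 76.4) of the Pfkfb pair with IL-36 gamma and 72.0% (70.4 to 73.7) in the control. The intervals of Hk3 did not overlap, while those of Pfkl and of Pfkfb3 did. Aldoa made up 98.9% of aldolase with IL-36 gamma and 98.7% in the control, and Pgm1 made up 64.9% of its pair with IL-36 gamma and 62.0% in the control. In each of the 5 enzymes the share of the leading form was higher with IL-36 gamma, by 0.21 to 2.92 percentage points. The leading form is the more abundant one, and abundant genes tended to higher ratios over all measured genes. With that trend on expression removed, Hk2 (1.05) lay above Hk3 (1.04), while in the other enzymes the leading form kept the highest ratio. The shares were not recomputed under that trend. The shares themselves depend on the exon lengths used.

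**Figure D3:**
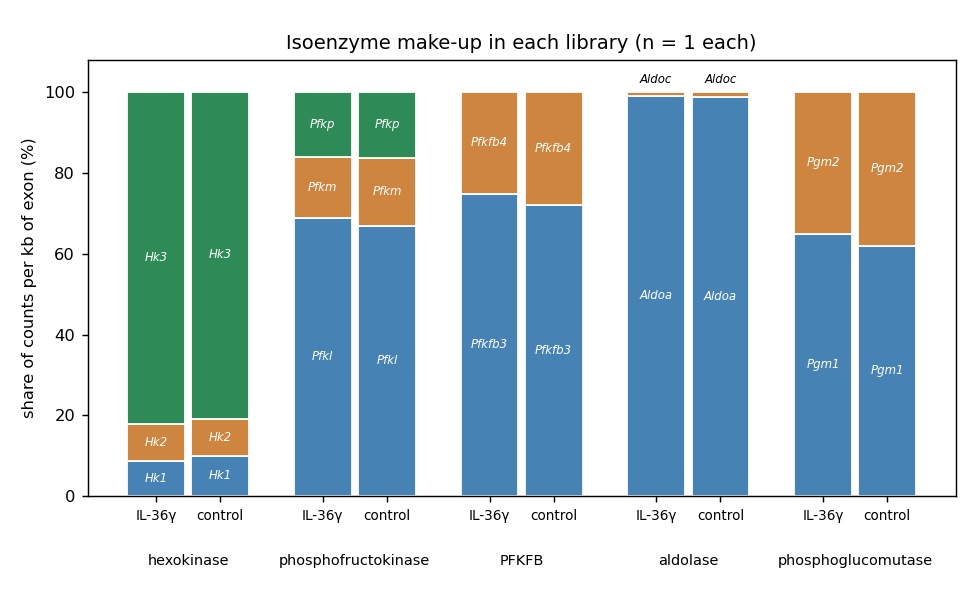
Share of each isoenzyme in the summed counts per kilobase of exon of its enzyme, in percent, for the IL-36 gamma and the control library (n = 1 each); bar segments add up to 100%. The same form leads in both libraries for all 5 enzymes, such as Hk3 with 82.2% of hexokinase in the IL-36 gamma library and 80.8% in the control library.

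Among the members the ratio went with abundance. Across the 30 genes the log2 ratio and log10 mean CPM had Pearson's r of 0.80 and Spearman's rho of 0.78, given as a description, since the genes share the same libraries and depth. Over all measured genes, too, the median ratio was higher in the more abundant ranges. The median log2 ratio was 0.02 for the 3729 measured genes from 30 to 100 CPM, where the 8 members had 0.02, and 0.07 for the 1455 genes from 100 to 300 CPM, where the 8 members had 0.13. Of the 403 genes from 300 to 1000 CPM the median was 0.13 and that of the 5 members 0.16. In the 84 genes at 1000 CPM or more it was 0.11, and the 6 members there had 0.25. With this trend on expression removed, 12 members were higher and 4 (Hk1, Gpi1, Pdk1 and G6pdx) lower, and the ratios of the members ran from 0.884 to 1.12. Exon length went with the ratio among all genes, and of 10 equal groups by length, group 2 had a median log2 ratio of 0.13 and the longest genes had -0.16. Among the members r with log10 exon length was -0.22, and with the length trend removed 18 members were higher and 1 was lower, which were not all the same genes. Pgk1 was then no longer higher and Pfkp was (1.16, 1.08 to 1.24), and G6pdx was lower while Pdk1 was not. The part of these trends in the results was not tested beyond those values.

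**Figure D4:**
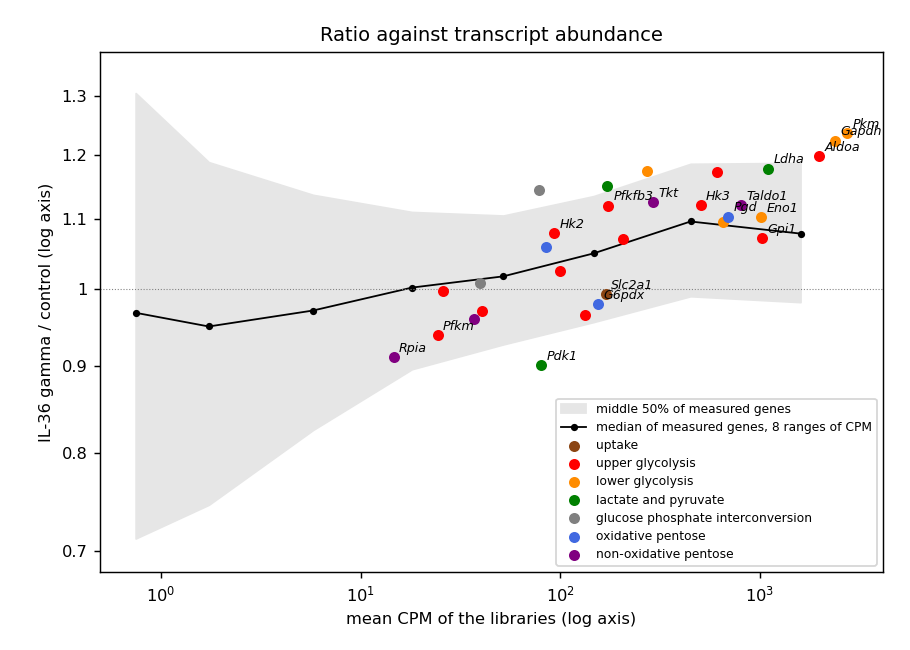
Ratio of IL-36 gamma over control against mean CPM, both on log axes, with each gene coloured by step; the black line joins the medians of measured genes in 8 ranges of CPM and the grey band holds their middle 50%. Members from 1000 CPM upward have a median log2 ratio of 0.25, against 0.11 for the 84 genes in that range, and those under 100 CPM scatter around a ratio of 1.

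Genes that act on or beside the pathway were split. Over all measured genes 20.2% were higher and 16.5% lower by the same rule. Calls in the lists outside the members were not recomputed under other scalings or trends. Of 22 hypoxia response genes, all measured, 6 were higher and 6 lower, with a median log2 ratio of 0.02. Ndrg1, a stress and hypoxia gene, had 7852 counts with IL-36 gamma and 3856 in the control, a ratio of 2.14 (2.06 to 2.22). Hif1a itself, the inducible subunit of hypoxia-inducible factor, was lower (1108 counts with IL-36 gamma and 1293 in the control, 0.899, 0.829 to 0.975), as was its relative Epas1 (35 counts with IL-36 gamma and 86 in the control, 0.427, 0.280 to 0.640). The mTOR inhibitor gene Ddit4 was higher (486 counts with IL-36 gamma and 324 in the control, 1.57, 1.37 to 1.82). The members of the set lay between these extremes, from 0.901 for Pdk1 to 1.24 for Pkm.

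Of 14 genes of the NRF2 antioxidant response outside the pentose pathway, all measured, 7 were higher and 4 lower, with a median log2 ratio of 0.09. The peroxiredoxin gene Prdx1 (1.11, 1.10 to 1.13) and the glutathione synthesis gene Gclm (1.13, 1.09 to 1.18) were higher and the export pump gene Abcc1 was lower (0.873, 0.840 to 0.907). Of 12 measured regulators of glycolytic transcription and signalling among 13 listed, 4 were higher and 3 lower, with a median log2 ratio of 0.03. By the same rule 20.2% of all measured genes were higher and 16.5% lower, and 52.9% and 22.9% of those at 100 CPM or more. Myc, a transcription factor that drives glycolytic genes, had 521 counts with IL-36 gamma and 554 in the control (0.987, 0.874 to 1.12), and Txnip, a glucose-induced brake on uptake, had 11052 counts with IL-36 gamma and 11268 in the control (1.03, 1.003 to 1.06). The glucose sensor gene Mlxip (0.787, 0.729 to 0.849) and the mTOR partner gene Rptor (0.875, 0.809 to 0.946) were lower and the kinase gene Akt1 was higher (1.09, 1.05 to 1.13).

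Markers of other cells and mitochondrially encoded mRNAs differed between the libraries as well. Of 12 neutrophil markers 11 were measured, with 6 higher and 1 lower, a median log2 ratio of 0.68 and a sum of 437 CPM with IL-36 gamma and 382 CPM in the control. S100a8 (1.58), S100a9 (1.70), Ngp (1.54) and Ltf (1.53) were among the higher ones and Mmp8 (0.663) was lower. Ly6g, a defining neutrophil marker, was below the count minimum. Of 8 monocyte markers 4 were higher and 2 lower, with a median log2 ratio of 0.32, while the sums ran the other way with 211 CPM with IL-36 gamma and 289 in the control. Much of the sum was F13a1, which was lower (124 CPM with IL-36 gamma and 213 in the control), while Plac8 (2.83), Ms4a4c (1.97) and Ly6c2 (1.96) were higher. Of 10 dendritic cell markers 3 were measured, 2 higher and 1 lower, with sums of 50.3 CPM with IL-36 gamma and 59.0 in the control. The 9 lymphocyte markers summed to 8.09 CPM with IL-36 gamma and 14.1 in the control, with 1 measured, Cd4, which was lower, and with Cd3e, Cd3g, Cd8a and Nkg7 at 0 in both libraries. The 8 stromal markers summed to 7.97 CPM with IL-36 gamma and 13.3 in the control, with 3 of 5 measured lower. The 7 erythroid markers summed to 0.413 CPM with IL-36 gamma and 0.732 in the control, with none measured. Of 13 mitochondrially encoded mRNAs 11 were measured, 0 higher and 5 lower, with sums of 10548 CPM with IL-36 gamma and 11902 in the control, and of the 10 macrophage markers 3 were higher and 6 lower, with sums of 29740 CPM with IL-36 gamma and 29950 in the control. Their part in the values of the glycolytic and pentose genes was not tested.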

How the data were processed

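Per the labels' protocols, RNA was extracted with Trizol and libraries followed standard Illumina steps. The authors deposited a raw count for each Ensembl gene, with no normalization. The submitters' processing notes name HTSeq, the aligner STAR 2.5.0a, Trim Galore 0.6.1, FastQC 0.11.8 and the build mm10. The strand setting is not given in the sources used here, so reads of genes that overlap on opposite strands, as 12 of the 30 members do, cannot be told apart. The 5 rows of each file that name no gene held 55.1% of the IL-36 gamma total and 55.6% of the control total and were left out.

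Symbols, coordinates and exon lengths came from GENCODE M21, in which 54409 of 54446 gene IDs were found without version numbers. TMM factors were 0.981 for IL-36 gamma and 1.02 for the control (edgeR 4.0.16, R 4.3.3). The edgeR test was not run, as there are no replicates to estimate a spread from. Ratios and exact 95% Clopper-Pearson intervals were computed with scipy 1.17.1 for genes whose mean count was 10 or more, and log2 ratios with a prior count of 2. The interval calculation was checked on simulated counts. Alternatives were other scalings (DESeq2 1.42.0 size factors among them), lowess trends with a span of 0.3, count filters, prior counts, thinning, a 99% interval and other gene lengths. Leaving out genes with shared stretches was chosen after seeing the data.

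All 30 members are named, and of each other list up to 3 genes whose interval lies farthest from 1, with 9 genes fixed by name. The relatives of Pdk1 were added afterwards for comparison. Some genes that this rule names are not reported here. The members and lists were chosen with earlier results of these data known.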

Additional observations from a re-analysis of the deposited data

How the results depend on the processing

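The upper quartile, the prior counts, thinning and the 99% interval kept every member summary within its interval or within 1.5 times its count. The count filters could change no member value, since the rarest member, Rpia, had a mean count of 254. Without the members overlapped on the opposite strand, 12 of the 18 left were higher and 1 was lower, with a median log2 ratio of 0.14. With total counts 3 members were lower in place of 1, and the summed ratio was 1.09 for upper and 1.15 for lower glycolysis, 1.11 for lactate and pyruvate, 1.04 for oxidative and 1.07 for non-oxidative pentose genes. The median log2 ratio of the non-oxidative genes was -0.0041 there. With DESeq2 size factors the summed ratio was 1.12 for upper and 1.18 for lower glycolysis. With the trend on expression removed, 4 members were lower. The median log2 ratio was then 0.012 for upper and 0.14 for lower glycolysis and 0.10 for lactate and pyruvate, and the summed ratios were 1.04, 1.08 and 1.06 for these and 1.003 and 1.03 for the oxidative and non-oxidative pentose genes. Gpi1 turned to a ratio of 0.976 there, the only called member ratio that changed direction under the 6 scalings and trends. With the trend on exon length removed, the median for lower glycolysis was 0.17 and summed ratios were 1.12 for upper and 1.18 for lower glycolysis, 1.12 for lactate and pyruvate and 1.07 for non-oxidative pentose genes. With the trend on GC content removed, 2 members were lower and summed ratios were 1.10, 1.15, 1.04 and 1.09 for upper and lower glycolysis and the oxidative and non-oxidative branches. The mean in place of the median gave 0.10 for lactate and pyruvate. Without members that share over 5% of their stretches, 8 were higher of the 17 left, none of which was a lower glycolysis gene. Under at least 1 of the 6 scalings and trends 10 members changed their call, and 20 did not. The cause of these shifts was not tested.

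Isoenzyme shares moved with the length used. Without division by length Hk3 had 70.2% with IL-36 gamma and 68.0% in the control, Pfkl 63.3% with IL-36 gamma and 61.9% in the control, Pfkfb3 82.2% with IL-36 gamma and 80.0% in the control, Aldoa 98.8% with IL-36 gamma and 98.6% in the control and Pgm1 67.6% with IL-36 gamma and 64.8% in the control. With the longest transcript Hk3 had 77.6% with IL-36 gamma and 75.6% in the control, Pfkl 63.9% with IL-36 gamma and 62.3% in the control, Pfkfb3 77.0% with IL-36 gamma and 74.4% in the control and Aldoa 99.3% with IL-36 gamma and 99.2% in the control. No paired analysis was possible because each group had 1 library. Depth limits the rare members most: the interval of Rpia, on 236 counts with IL-36 gamma and 272 in the control, ran from 0.762 to 1.09.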
